A study of Rattus norvegicus with 12 samples.

Results

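Synaptic activity was compared with synaptic block in rat hippocampal neuron cultures in which transcription was left intact. The comparison rests on 6 of the 12 arrays of the series, those labelled BiC/4AP (called Activity here) and Block without actinomycin D (ActD), with 1 array of each at 5, 30 and 60 min. The neurons came from Sprague Dawley rats at embryonic day 18.5, were plated over a glial feeder layer and were treated after 12 days in culture. All cultures, Block included, were first held for 3 h in an inhibitor cocktail of D-APV (50 µM, against NMDA receptors), CNQX (40 µM, against AMPA receptors) and tetrodotoxin, which silences sodium channels. According to the paper, the inhibitors were then washed out of the Activity cultures. These received 50 µM bicuculline (BiC), which blocks GABA-A receptors, with 500 µM 4-aminopyridine (4-AP), which blocks potassium channels, for 5 min. For the later harvests BiC and 4-AP were then removed. Block cultures stayed in the inhibitors, so that Activity and Block differed in the inhibitors as well as in BiC and 4-AP. Both received the DMSO vehicle. The other 6 arrays repeat the design with 25 µM ActD, an inhibitor of RNA polymerase II. According to the methods, RNA was taken at the end of the stimulus or 30 or 60 min after it, and 3 coverslips were pooled for each sample. Every array carries replicate number 3, so that each group holds 1 array, and the 3 harvests stood in for replicates. Nothing in the labels shows that the harvests came from separate preparations, and p-values therefore measure only the spread of the difference between harvests, which may be technical. In the fit of all 12 arrays, that spread and the SE also draw on the pairs with ActD.

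Firing of hippocampal neurons admits calcium through NMDA receptors and voltage-gated calcium channels, and calcium-dependent kinases then act on the transcription factors CREB and SRF, which sit in advance on the promoters of early response genes such as Fos, Egr1, Arc and Nr4a1. The products of these genes drive a later wave of effectors that includes neuropeptides and growth factors. Activity also alters the lifetime of many mRNAs, and with transcription intact both processes contribute to the level of a transcript.

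The 6 arrays were similar in brightness, with summed intensities from 10858200 to 13824800 and 10108 to 11032 of 22523 probes detected at a detection p under 0.01. Of these probes, 11792 were detected on at least 2 of the 12 arrays and were tested, 8356 of them with a gene symbol. Marker lists for each cell type matched the label of neurons grown over glia: 15 of 16 neuron markers on the array and 13 of 14 astrocyte markers were detected on all 6 arrays. The summed intensity of the neuron markers lay between 61545 and 68508 without order by treatment. The astrocyte sum was higher at 5 min (104020 in Activity and 97880 in Block) than at the later harvests (68232 to 71723). None of 15 microglia markers was detected on all 6 arrays and C1qc, P2ry12 and Ptprc were detected on none. Their sum was 1982 in Activity and 1396 in Block at 5 min, against 144 to 199 on the other 4 arrays. The fibroblast and vessel sum followed the same order, at 4161 in Activity and 3360 in Block at 5 min and between 1536 and 1858 later. In bulk RNA, fewer cells of a type and less RNA per cell cannot be told apart.

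No difference between Activity and Block passed the test across all probes. Across the 11792 probes, 0 (0%) passed an adjusted p of 0.05 in limma's fit of all 12 arrays paired by harvest and ActD, and the lowest adjusted p was 0.133. At an unadjusted p under 0.05, 730 probes (6.19%) were higher in Activity and 810 (6.87%) were lower, and the median of all tested probes was 0.01 on the log2 scale. When each array was instead scaled to its total intensity, the split became 262 higher and 1458 lower and the median moved to -0.05, so that the balance of directions depends on the scaling. Fitted on the 6 arrays alone, with 2 residual degrees of freedom, 180 probes (1.53%) passed, 27 of them higher and 153 lower in Activity. Without the 30 min pair treated with ActD, which enters the 12-array fit only through the residual spread, 229 passed.

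The direction repeated over the harvests for part of the transcripts. Activity was above Block at all 3 harvests for 2476 probes (21%) and below it for 2007 (17%). All 3 Activity arrays lay above all 3 Block arrays for 510 probes (4.32%) and below them for 333 (2.82%). Under total intensity scaling the majority turned, to 1292 higher and 3710 lower at all harvests and to 171 above and 651 below without overlap. Over all probes, as a description, the Activity minus Block differences correlated at 0.14 between 5 and 30 min, 0.21 between 5 and 60 min and 0.32 between 30 and 60 min, each from separate arrays. Past 1.5-fold, 239 probes (2.03%) were higher and 184 (1.56%) lower at 5 min, 114 (0.967%) higher and 309 (2.62%) lower at 30 min, and 133 (1.13%) higher and 311 (2.64%) lower at 60 min. These are differences between single arrays with no replicate check, and under total intensity scaling the order at 5 min turned to 41 higher and 74 lower, with 3 and 202 at 30 min and 4 and 181 at 60 min. The SD of the difference over probes was 0.26, 0.25 and 0.26 (log2) at the 3 harvests, while in Block alone the harvests differed by an SD of 0.51 between 5 and 30 min, 0.56 between 5 and 60 min and 0.32 between 30 and 60 min. When harvests were pooled, the Activity and Block groups overlapped for 10 of the 12 higher and 11 of the 12 lower genes described next, which were chosen for the same order within each harvest.

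**Figure D1:**
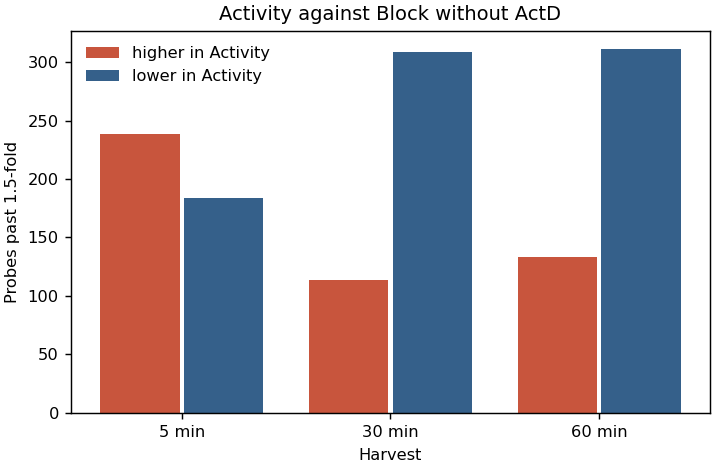
Bars count the probes whose normalised intensity differed past 1.5-fold between the Activity and Block array at each harvest without ActD, out of 11792 tested probes. More probes were higher than lower at 5 min (239 and 184, but 41 and 74 under total intensity scaling), and more were lower at 30 min (114 and 309) and 60 min (133 and 311).

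The genes lower in Activity with the lowest p included an ion exchanger, a sodium channel, an AMPA receptor subunit and microtubule-associated proteins, beside transcription factors and others. The 12 named by rule, which required the same sign at all 3 harvests, had mean differences from -0.88 to -0.39 (log2). Each had an adjusted p of 0.279 in the 12-array limma fit, while all 12 passed in the fit of the 6 arrays alone. That fit rests on the same differences by which the 12 were chosen, so that passing it is no separate support. Slc24a2, a potassium-dependent sodium/calcium exchanger of neurons, had normalised intensities (log2) of 5.60, 6.46 and 6.003 in Activity at 5, 30 and 60 min and of 6.37, 7.53 and 6.79 in Block. It lay below Block at each harvest, with a mean difference over 3 pairs of -0.88 ± 0.16 (SE of the 12-array fit), the largest of the 12. Scn2a, a voltage-gated sodium channel of axons, was at 6.47, 7.94 and 7.69 in Activity and 7.48, 8.34 and 8.10 in Block. Its difference was widest at 5 min and averaged -0.60 ± 0.13. Gria2, the AMPA receptor subunit that limits calcium entry, measured 9.55, 11.81 and 11.34 in Activity against 10.25, 12.03 and 12.08 in Block. Here the gap was narrow at 30 min and wide at 5 and 60 min, with a mean of -0.55 ± 0.12.

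Mdga2, a membrane-anchored immunoglobulin protein that binds neuroligins, was at 7.78, 8.53 and 8.50 in Activity and 8.22, 9.13 and 9.26 in Block, a mean difference of -0.60 ± 0.13. Map1b, a microtubule-associated protein of growing axons, gave 9.06, 10.20 and 10.18 in Activity and 9.60, 10.43 and 10.79 in Block, a mean difference of -0.46 ± 0.10. Another Map1b probe was 0.18 higher in Activity at 5 min and 1.18 and 0.84 lower at 30 and 60 min, so that the probes disagreed at 5 min. Wdr47, a WD-repeat protein of neuronal microtubules, read 6.94, 7.33 and 7.28 in Activity and 7.32, 7.81 and 8.20 in Block, with the widest gap at 60 min.

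Transcription factors and a translation factor were among the same 12. Zbtb18, a zinc finger repressor of brain development, was at 7.76, 8.41 and 8.73 in Activity and 8.33, 8.81 and 9.13 in Block, and Klf7, a Krüppel-like factor of axon growth, had a mean difference of -0.39 ± 0.09. Eif3a, the largest subunit of a translation initiation complex, measured 10.30, 11.57 and 11.46 in Activity and 10.74, 11.86 and 11.93 in Block. Tspyl4 was the single gene of the 12 whose Activity values (10.55, 10.62 and 10.83) all lay below all Block values (10.95, 11.18 and 11.44). The remaining members, Sh3bgrl1 and Fam111a, a protease that restricts viruses, had mean differences of -0.60 and -0.59.

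The genes higher in Activity with the lowest p included regulators of actin, stress-responsive genes and interferon-responsive genes. The 12 named by rule had mean differences from 0.27 to 0.64 (log2) with adjusted p from 0.279 to 0.286 in the 12-array limma fit. In the fit of the 6 arrays alone, which rests on the same differences by which they were chosen, 9 of them passed. Coro1b, a coronin that regulates actin filaments, was at 9.19, 8.65 and 8.47 in Activity at 5, 30 and 60 min and 8.57, 8.25 and 8.07 in Block. Its mean difference over 3 pairs was 0.48 ± 0.10 (SE of the 12-array fit). Trip10, a membrane-bending protein that links Cdc42 to actin, measured 6.83, 6.19 and 6.04 in Activity and 6.38, 5.39 and 5.503 in Block. Both were above Block at every harvest, Trip10 by 0.45, 0.79 and 0.53. Tnfrsf12a, the receptor for the cytokine TWEAK, gave 8.47, 7.59 and 7.04 in Activity and 7.55, 7.10 and 6.75 in Block. The gap narrowed with the harvests, from 0.92 at 5 min to 0.29 at 60 min.

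Gdf15, a stress-induced cytokine, was at 12.01, 10.44 and 9.67 in Activity and 11, 10.34 and 9.11 in Block, so that the arrays nearly met at 30 min. Bax, a pro-apoptotic member of the Bcl-2 family, had even differences of 0.37, 0.35 and 0.43 from values of 8.33, 7.68 and 8.58 in Activity and 7.96, 7.33 and 8.14 in Block. Gstp1, a glutathione S-transferase, read 13.60, 12.51 and 12.53 in Activity and 13.38, 12.20 and 12.26 in Block, with the smallest mean difference of the 12 (0.27 ± 0.06). Hoxb1, a homeobox transcription factor, was detected on all 3 Activity arrays (5.82, 5.83 and 5.45) and on none of the 3 Block arrays. Detection on all 3 Activity arrays was part of the rule that named it. Against the lowest detected signal of those Block arrays, Hoxb1 was at least 1.44-fold higher in Activity in the main normalisation (adjusted p 0.286 in the limma fit). Its log2 difference was 0.64 there, 0.28 under total intensity scaling and 0.36 without background correction.

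Ifi27l2b, an interferon-inducible gene, was 0.79 higher in Activity at 5 min and 0.21 at both later harvests. Mx2, an interferon-induced GTPase, was 0.55, 0.49 and 0.39 higher, and 2 of its 3 Block arrays were detected. The mean differences of Hist1h2bd, a histone H2B gene, Phyhd1, a dioxygenase-like enzyme, and Grhpr, which reduces glyoxylate, were 0.33, 0.41 and 0.37. Hoxb1 and Grhpr were the members of the 12 whose Activity arrays all lay above all Block arrays. The microglia and fibroblast sums were also higher in Activity at 5 min, and their part in these differences was not tested.

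**Figure D2:**
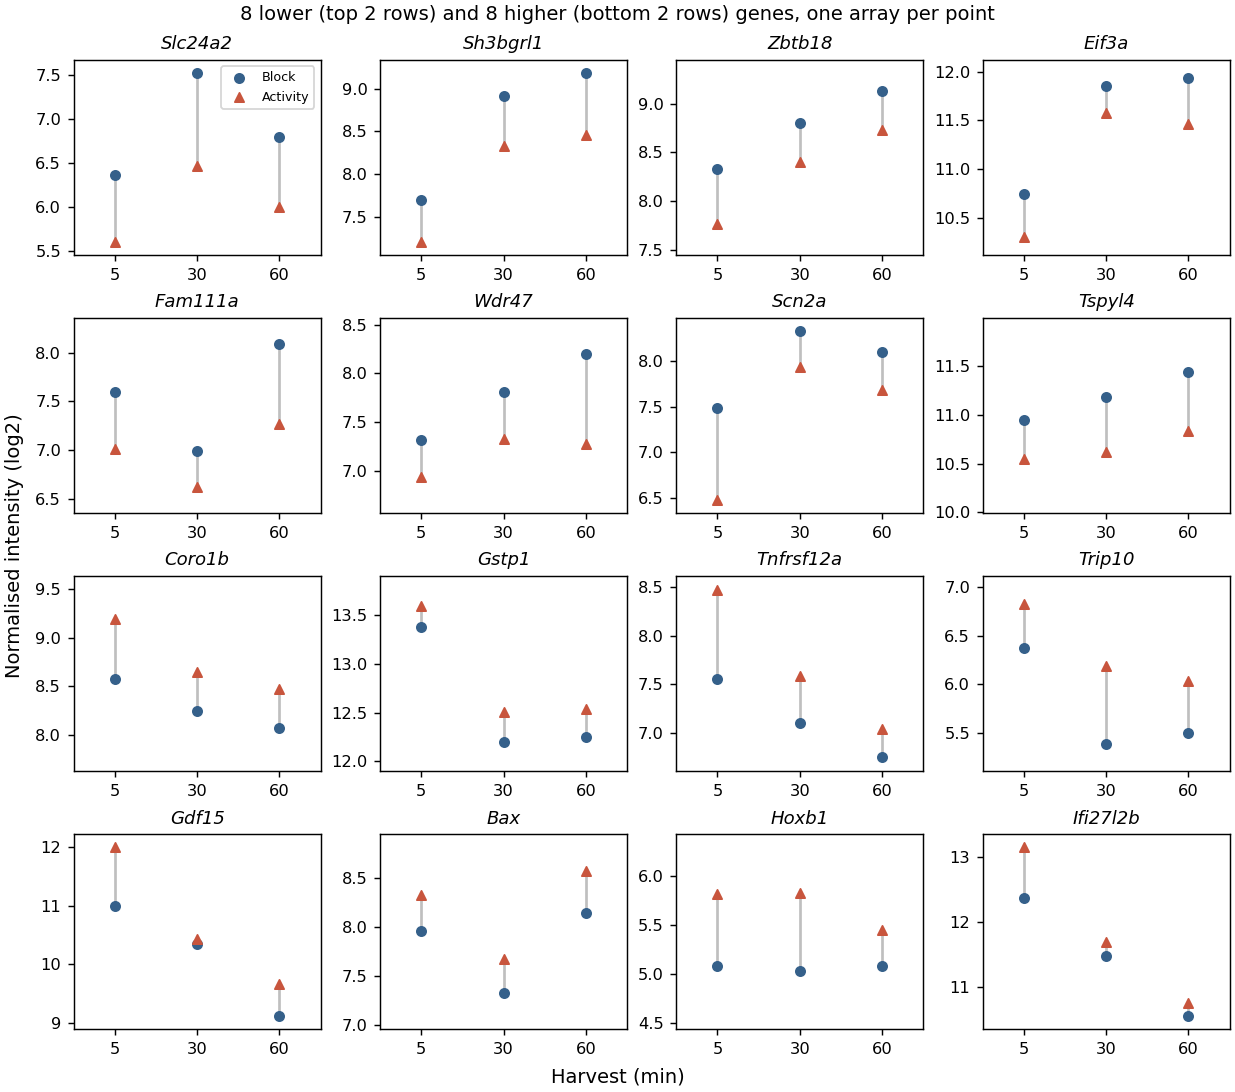
Each panel shows 1 gene, with the normalised intensity (log2) of the Activity array (triangle) and Block array (circle) at 5, 30 and 60 min without ActD, joined by a line within each harvest. The 8 lower genes with the lowest p fill the top rows and the 8 higher genes the bottom rows, all chosen for lying on the same side of Block at all 3 harvests. The level itself moved between harvests, for Gdf15 in Block from 11 at 5 min to 9.11 at 60 min.

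By a z-fold adapted from the methods, at a threshold of 1.4 and without their requirement that arrays with ActD pass too (the difference of log intensities, z-scored within each array, divided by its SD over probes), 19 of 10739 probes (0.177%) were higher in Activity at all 3 harvests and 76 (0.708%) were lower. At the single harvests 785 were higher and 804 lower at 5 min, 504 and 708 at 30 min, and 606 and 901 at 60 min. On unlogged intensities the order turned, with 262 and 179, 222 and 185, and 284 and 257. The 9 named genes of the higher set were Abhd11, Bax, Coro1b, Crtap, Dxo, Mia, Phyhd1, Prrc1 and Trip10. The lower set held 62 named genes. Picked out after their values were seen, these included the adhesion molecules Ncam1, Alcam, Opcml, Lrrc4c and Pcdh17, the guidance receptors Nrp1 and Epha5, the BDNF receptor Ntrk2, the calcineurin subunit Ppp3ca and the calcium pump Atp2b1.

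Early response genes, the first transcripts known to follow neuronal firing, were mostly a little higher in Activity. Of 28 transcription factors and other early response genes tested, 23 were higher and 5 lower, with a median of 0.11 (log2) against 0.01 for all probes. At an unadjusted p under 0.05, 8 were higher and 1 lower, against 6.19% and 6.87% of all probes. The median was 0.17 at 5 min, 0.06 at 30 min and 0.05 at 60 min. It was 0.02 under total intensity scaling, where the median of all probes was -0.05. Without the 5 min pair it was 0.05. No member passed the adjusted threshold.

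The best known members differed little. Fos read 8.11, 6.35 and 6.05 in Activity at 5, 30 and 60 min and 7.91, 6.43 and 5.95 in Block, a mean difference of 0.07 ± 0.16 (SE, 3 pairs; adjusted p 0.87 in the limma fit). Egr1, a zinc finger factor of plasticity, was at 9.34, 9.18 and 8.75 in Activity and 8.97, 9.25 and 8.67 in Block. Both were above Block at 5 min and below it at 30 min, and for Fos the direction of the mean turned under total intensity scaling. Junb, an AP-1 subunit, had values of 9.99, 8.27 and 7.52 in Activity and 9.84, 7.76 and 7.36 in Block, and was higher at each harvest with the widest gap at 30 min. Arc, whose product remodels AMPA receptors at synapses, was at 5.89, 5.99 and 5.496 in Activity and 6.09, 5.65 and 5.31 in Block, higher at 30 and 60 min. Nr4a1, an orphan nuclear receptor, was detected on 2 of 3 Activity arrays and 1 of 3 Block arrays, and its difference of 0.09 ± 0.16 lay near background. The mean direction of Arc and Nr4a1 turned under total intensity scaling. Npas4 was on the array but did not pass the detection filter, and no probe carried the symbol Homer1, so that neither was tested.

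Nr4a3, a relative of Nr4a1, went the other way. It measured 10.43, 9.59 and 9.56 in Activity and 10.75, 10.05 and 10.18 in Block, a difference that widened from -0.33 at 5 min to -0.47 at 30 min and -0.62 at 60 min. Its mean difference of -0.47 ± 0.11 had an adjusted p of 0.279 in the 12-array limma fit and of 0.00558 in the fit of the 6 arrays. Nr4a2, the third member of the family, had a mean difference of -0.28. Of the early response list, the lowest p after Nr4a3 belonged to Ier3 (0.29 ± 0.08), Ier5 (0.25 ± 0.08) and Junb (0.27 ± 0.10). Atf3, a stress-induced factor, had a mean of 0.40 that came mostly from 5 min.

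Effectors of activity were also more often higher than lower. Of 34 tested, 24 were higher and 10 lower in Activity with a median of 0.08, which turned to -0.01 under total intensity scaling (where the median of all probes was -0.05). At an unadjusted p under 0.05, 4 were higher and 2 lower, against 6.19% and 6.87% of all probes. Ppargc1a, a coactivator of mitochondrial genes, had the lowest p and was lower in Activity: it was detected on all 3 Block arrays (5.23, 5.69 and 5.97) and on none of the 3 Activity arrays. Against the lowest detected signal it was at least 1.31-fold lower in the main normalisation (adjusted p 0.286 in the limma fit). Ppp1r15a, which restores translation after stress, was at 8.58, 7.84 and 7.38 in Activity and 7.85, 7.57 and 7.27 in Block. Its difference was 0.73 at 5 min and narrowed to 0.12 at 60 min. Ccn2, a matricellular protein, was 1.20 higher at 5 min, 0.17 lower at 30 min and 0.28 higher at 60 min. Bdnf, the growth factor, was at 7.90, 7.21 and 6.78 in Activity and 8.44, 7.13 and 6.996 in Block, with no common direction.

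**Figure D3:**
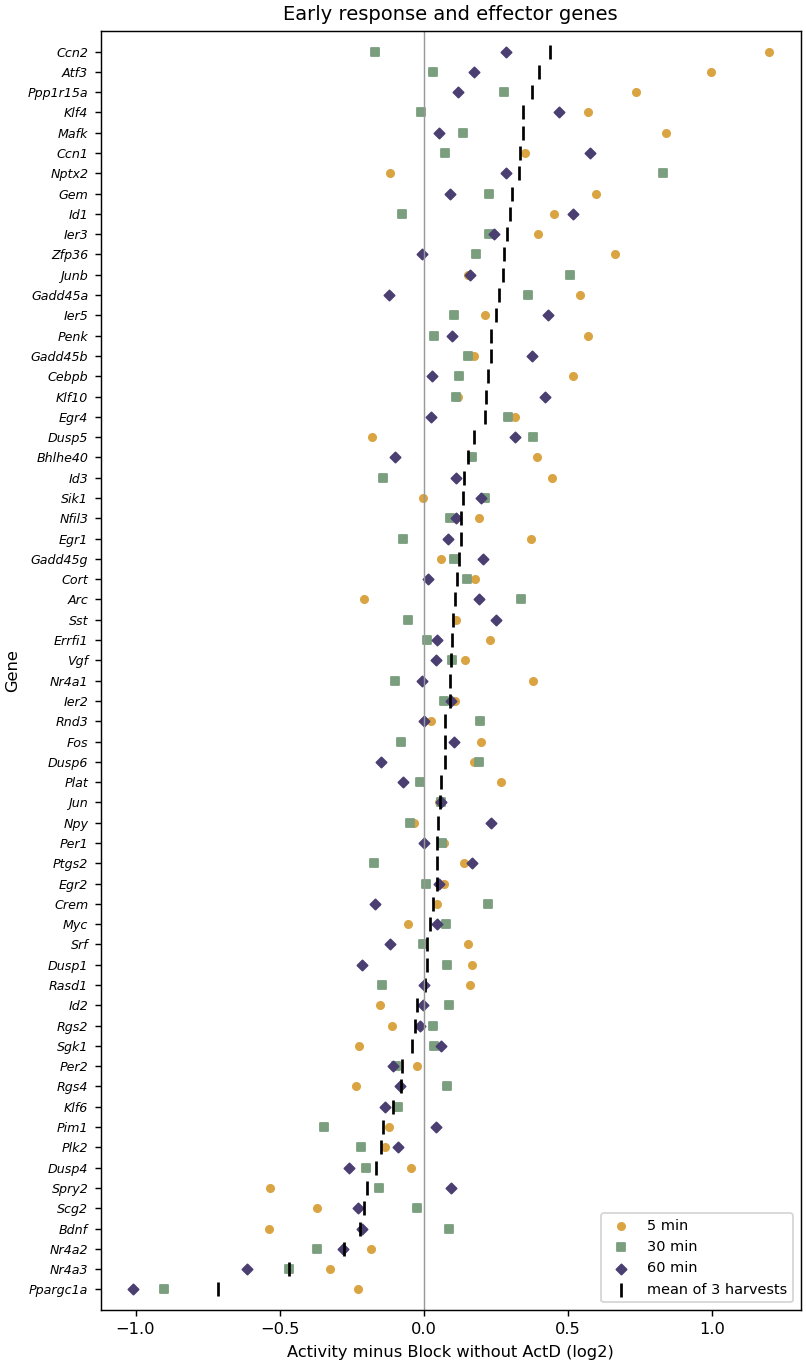
Each row is a tested early response or effector gene, with its Activity minus Block difference (log2) at 5, 30 and 60 min without ActD and the mean of the 3 harvests as a bar. Most means lay between 0 and 0.4, the largest single difference was 1.20 for Ccn2 at 5 min, and Ppargc1a and Nr4a3 were among the genes lower at every harvest.

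The promoters of these genes are shown because the factors that activity acts on bind known letters in them. Of the 62 genes, 50 matched 60 promoters of 300 bases (250 before and 50 after the start) in RefSeq's GRCr8. The cAMP response element that CREB binds, TGACGTCA, lay in 10 of the 60 (16.7%) against 1.83% of all 33469 promoters, and the core of the serum response element that SRF binds in 7 (11.7%) against 1.64%. The AP-1 site (TGACTCA or TGAGTCA) lay in 2 (3.33%) against 4.63% of all. Both strands were searched, the motifs share no full match, and a match is a description of letters. Of the 9 genes with the CREB element 6 were higher and 3 lower in Activity. Of the 7 with the SRF core 6 were higher and 1 lower. Over both lists, whatever the promoters held, 23 of 28 early response genes and 24 of 34 effectors were higher, and direction by motif was not tested. The windows below hold such letters in capitals for 2 genes with paired SRF cores and for the effectors with the lowest p in each direction, Ppp1r15a (higher) and Ppargc1a (lower), both with the CREB element, each read on its gene's strand (Egr1 chr18:26736948-26737029 plus, Dusp5 chr1:262543667-262543736 plus, Ppp1r15a chr1:105139630-105139687 minus, Ppargc1a chr14:63634102-63634159 plus).
Egr1: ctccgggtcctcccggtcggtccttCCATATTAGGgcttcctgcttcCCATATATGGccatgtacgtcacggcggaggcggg
Dusp5: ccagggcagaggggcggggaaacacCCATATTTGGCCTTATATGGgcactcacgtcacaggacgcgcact
Ppp1r15a: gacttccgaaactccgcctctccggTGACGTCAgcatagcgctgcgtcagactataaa
Ppargc1a: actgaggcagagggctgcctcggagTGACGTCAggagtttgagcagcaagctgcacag
The same 8 letters thus stood before a gene that was higher and a gene that was lower in Activity.

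Genes of axons and synapses were mostly lower in Activity. Of 42 axon and neuron projection genes tested, 35 were lower and 7 higher, with a median of -0.13 (log2) against 0.01 for all probes, and 13 were lower and 1 higher at an unadjusted p under 0.05 (background 6.87% and 6.19%). Epha5, an ephrin receptor, read 8.71, 8.47 and 8.75 in Activity at 5, 30 and 60 min and 9.10, 9.25 and 9.35 in Block, with no overlap. Cntn1, a contactin of axons, was at 7.02, 8.49 and 8.41 in Activity and 7.65, 8.74 and 9.01 in Block. Ntrk2 measured 9.06, 9.57 and 9.72 in Activity and 9.66, 10.07 and 10.09 in Block. Each of these was lower at all 3 harvests, as were 18 of the 42, against 17% of all tested probes.

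Among synaptic vesicle and release genes 29 of 39 were lower, with a median of -0.08. At an unadjusted p under 0.05, 10 of them and no higher gene passed, against 6.87% lower and 6.19% higher of all probes. Sv2b, a synaptic vesicle glycoprotein, had 12.90, 13.09 and 12.78 in Activity against 13.48, 14.19 and 13.88 in Block. All Activity values lay below all Block values. The mean difference over 3 pairs was -0.93 ± 0.25 (SE and adjusted p of 0.286 from the 12-array limma fit, adjusted p of 0.000158 in the limma fit of the 6 arrays). Syt1, the calcium sensor of release, was lower by 0.48, 0.06 and 0.28, and Napb, which helps to recycle fusion complexes, by 0.31, 0.33 and 0.74.

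Glutamate receptor and postsynaptic density genes had a median of -0.14, with 29 of 41 lower and 9 of them at an unadjusted p under 0.05 (6.87% of all probes). Besides Gria2, Grm5, a metabotropic glutamate receptor, was detected on 1 of 3 Activity arrays and on all 3 Block arrays. Camk2b, a calcium-dependent kinase subunit of synapses, was at 11.38, 10.97 and 11.37 in Activity and 11.60, 11.85 and 11.75 in Block, with no overlap and the widest gap at 30 min. For GABA, glycine and monoamine receptors 18 of 26 were lower (median -0.05, 6 at an unadjusted p under 0.05), led by Gabbr2, a GABA-B receptor subunit, with -0.23 ± 0.07. The cannabinoid receptor Cnr1 was at 6.48, 6.13 and 6.42 in Activity and 6.82, 7.01 and 7.01 in Block, again without overlap.

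For voltage-gated ion channels 23 of 35 were lower (median -0.07), 5 lower and 1 higher at an unadjusted p under 0.05 (6.87% and 6.19% of all probes). Cacna2d1, an auxiliary calcium channel subunit, was 0.64, 0.32 and 0.37 lower, and Kcnd2, a potassium channel of dendrites, 0.14, 1.004 and 0.62 lower. The channel median without the 5 min pair was -0.03. The neuron markers themselves had a median of -0.14, with 13 of 16 lower, and their harvest medians were -0.31, -0.07 and -0.07. Map2, the dendritic microtubule protein, was at 6.51, 6.71 and 6.92 in Activity and 6.94, 8.33 and 7.91 in Block, with a mean difference of -1.01 ± 0.28. Neuronal markers were thus lower along with the axonal and synaptic lists, and their part in those lists was not tested. The summed intensity of the neuron markers was above Block at 60 min and below it at 5 and 30 min.

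Interneuron, astrocyte, oligodendrocyte and fibroblast lists had medians near 0, while the microglia list was higher at 5 min. The median was 0.02 for 14 interneuron markers, -0.02 for 13 astrocyte markers, 0.06 for 10 oligodendrocyte lineage markers and 0.00 for 11 fibroblast and vessel markers. The signs of the interneuron, oligodendrocyte and fibroblast medians turned under total intensity scaling and that of the astrocyte markers under median scaling. Of the interneuron markers 8 were higher and 6 lower, and the 4 with the lowest p were all lower, among them Vip and Gad1 by 0.13 and 0.15. Gad2, an enzyme of GABA synthesis, was 0.30, 1.09 and 0.86 lower and Reln, a secreted guidance protein, 0.32, 0.25 and 0.16 lower at 5, 30 and 60 min. All 10 microglia markers tested were higher on average (median 0.13), from harvest medians of 0.44 at 5 min, 0.05 at 30 min and -0.01 at 60 min. Without the 5 min pair the median was 0.03, against 0.02 for all probes, so that the direction rests on 1 array against 1. C1qa, Aif1 and Ctss were each detected on 1 of 3 arrays in each arm, and Trem2 on 2 of 3.

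Genes of protein synthesis and respiration were mostly higher in Activity, by small amounts. Of 57 cytosolic ribosomal protein genes 46 were higher (median 0.06), 11 higher and 1 lower at an unadjusted p under 0.05 (6.19% and 6.87% of all probes). Rps26 read 13.72, 13.63 and 13.52 in Activity and 13.29, 13.35 and 13.42 in Block, without overlap, and Rps16 was 0.12, 0.47 and 0.38 higher. Ribosomal protein genes have many near-identical pseudogenes, and their probes can share signal. Of 55 oxidative phosphorylation genes 42 were higher (median 0.08), 9 higher and 1 lower at an unadjusted p under 0.05. Atp5pd, a subunit of ATP synthase, gave 10.92, 10.86 and 10.92 in Activity and 10.70, 10.64 and 10.65 in Block, nearly the same difference at each harvest. The harvest medians of this list were 0.08, 0.05 and 0.07, and both lists kept their sign under every scaling tried, from 0.06 to 0.18 for the ribosomal and 0.08 to 0.19 for the respiratory genes.

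In stress and cytoskeletal lists more genes were higher than lower, against 53.2% of all tested probes higher. Among Nrf2 antioxidant targets 23 of 28 were higher (median 0.08), with harvest medians of 0.23, 0.08 and 0.00, and 0.01 without the 5 min pair. Blvrb, biliverdin reductase, was 0.25, 0.16 and 0.35 higher. The p53 and integrated stress response list had 18 of 29 higher (median 0.04, and 0.16 at 5 min), and 10 higher and 2 lower at an unadjusted p under 0.05 (6.19% and 6.87% of all probes). Beside Gdf15 and Bax, these included Cebpg, a partner of stress factors, at 8.09, 7.67 and 7.96 in Activity and 7.77, 7.55 and 7.24 in Block. Actin regulators and SRF-MRTF targets had 27 of 43 higher (median 0.07, turning to -0.01 under total intensity scaling, where that of all probes was -0.05), while Actb, cytoplasmic actin itself, was lower by 0.38, 0.07 and 0.07. At 5 min the microglia and fibroblast sums were also higher in Activity (1982 against 1396 and 4161 against 3360), and their part in these lists was not tested.

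NF-kB and inflammatory genes had 20 of 26 higher (median 0.09, and 0.00 under total intensity scaling). Cxcl1, a chemokine, was at 13.44, 6.57 and 5.89 in Activity and 13.12, 6.39 and 5.44 in Block, a gap between harvests far larger than the differences within them. Lcn2, an acute phase protein, stood at 14.17 and 14.70 at 5 min and 5.76 and 5.47 at 60 min. The microglia sum showed the same excess at 5 min, and its part in this list was not tested. Cholesterol synthesis genes had 15 of 21 lower (median -0.07), from -0.19 at 5 min and 0.00 at both later harvests, so that the sign turned to 0.02 without the 5 min pair. mRNA decay and microRNA silencing genes had no direction (16 higher, 22 lower, median -0.01). Cnot6, a deadenylase of the CCR4-NOT complex, was nevertheless lower by 0.62, 0.53 and 0.60, with all Activity arrays below all Block arrays, and Pum2, an RNA-binding repressor, by 0.43, 0.42 and 0.21.

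**Figure D4:**
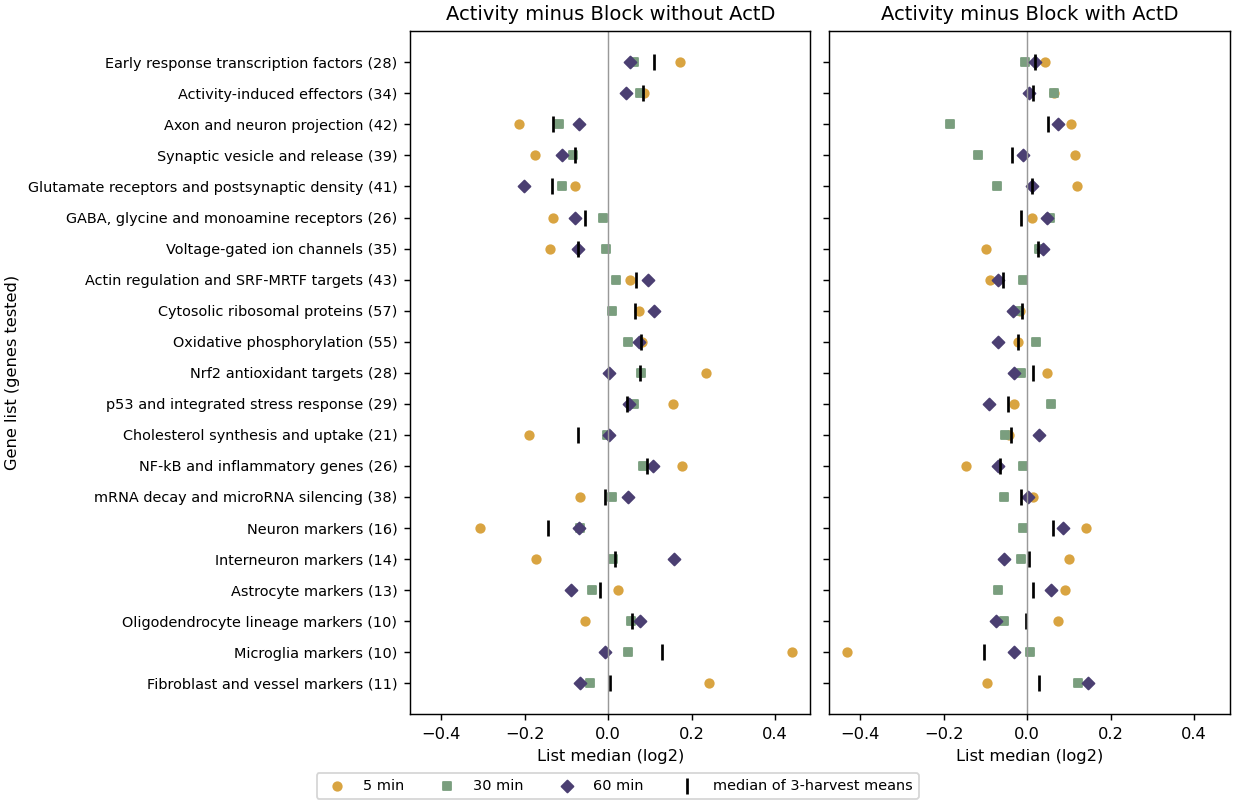
Points are list medians of the Activity minus Block difference (log2) at 5, 30 and 60 min, and bars the median of the 3-harvest means, without ActD (left) and with ActD (right), with the number of genes tested in brackets. Without ActD the axonal, vesicle, glutamate, GABA, channel and neuron lists lay below 0 at each harvest, and the microglia list stood apart at 5 min (0.44) on the left and on the right (-0.43).

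Single harvests had their own extremes, each from 1 array against 1. At 5 min the highest differences belonged to Cyp4b1, a cytochrome P450 (1.35), Ccn2 (1.20), C2, a complement component (1.07), Areg, an EGF family ligand (1.06), RT1-A2, a class I histocompatibility gene (1.05), and Gdf15 (1.01). All but Gdf15 were within 0.3 of Block at the later harvests, where Cyp4b1 and Areg were not detected in either arm. The lowest were Uba6, a ubiquitin-activating enzyme (-1.17), Scn2a (-1.01), Dpp6, a potassium channel partner (-0.97), Rbm25, a splicing factor (-0.93), Grm7, a presynaptic glutamate receptor (-0.88), and Slc3a1, an amino acid transporter subunit (-0.87).

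At 30 min the highest were Cyp24a1, which inactivates vitamin D (0.84), Tars2, a mitochondrial tRNA synthetase (0.83), Nptx2, a pentraxin that clusters AMPA receptors (0.83), Acot3, a thioesterase (0.82), Nfkbil1 (0.80) and Trip10 (0.79). Nptx2 was 0.12 lower at 5 min and 0.28 higher at 60 min. The lowest were Map2 (-1.63), Dpysl3, a collapsin response mediator (-1.45), Tcf7l1, a Wnt pathway factor (-1.41), Cacng4, an AMPA receptor auxiliary subunit (-1.25), Pde4b, a cAMP phosphodiesterase (-1.18), and the other Map1b probe (-1.18). Dpysl3, Tcf7l1 and Cacng4 were higher in Activity at 5 min.

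At 60 min the highest were Car3, a carbonic anhydrase (1.42), Myrip, a myosin adaptor (0.87), Apobec1, an RNA-editing deaminase (0.81), RT1-T18 (0.79), Tmed3 (0.78) and Fam228a (0.77). Car3 was 0.61 lower at 30 min. The lowest were Sv2b (-1.11), Usp45, a deubiquitinase (-1.08), Necab1, a calcium-binding protein (-1.07), Ston2, an endocytic adaptor (-1.05), Pcdh17 (-1.04) and Bmi1, a Polycomb subunit (-1.03). Sv2b and Pcdh17 were among the genes lower at every harvest.

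With ActD present, the same stimulus gave other differences. At 5 and 60 min the differences of all probes with and without ActD correlated at -0.18 and -0.32, and at 30 min at 0.37, each from separate arrays. Of the 12 named lower genes 11 had a mean difference above 0 with ActD, from -0.02 to 0.58, and 6 were higher in Activity at all 3 harvests. Of the 12 named higher genes 10 had a mean below 0 with ActD, from -0.34 to 0.13, and 4 were lower at all 3 harvests. The genes were chosen for their values without ActD, which therefore lie far from 0 by choice. The median of all tested probes with ActD was -0.01 (log2). The share of all probes with 1 sign at all 3 harvests with ActD is not given here, so that the counts of 6 and 4 have no background beside them.

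The difference between the effects with and without ActD passed an adjusted p of 0.05 in the limma fit for 27 probes (0.229%), 18 of them with a gene symbol. All 27 had a lower mean in Activity without ActD (-0.60 to -0.21) and were higher at all 3 harvests with ActD (means 0.26 to 0.58). Of the 27, 26 were lower at all 3 harvests without ActD, against 17% of all tested probes. The 27 were chosen for the difference between the effects, so that opposite directions are in part built in by the choice. No probe passed in the other direction. These calls depended on the setting. They numbered 2 under total intensity scaling and 2 without background correction, 13 under median scaling, and 0 with a harvest factor shared with and without ActD or without a harvest block. The count was 8 without the 30 min pair lacking ActD, 649 without the 30 min pair with ActD, and 0 when either the 5 min or the 60 min pair of either treatment was left out.

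Gria2, whose 6 values without ActD are given above, was higher in Activity by 0.35, 0.35 and 0.99 with ActD, against -0.70, -0.22 and -0.74 without it. The effect with ActD exceeded that without by 1.12 (adjusted p 0.0402, limma). Scn2a was higher by 0.51, 0.43 and 0.60 with ActD and lower by 1.01, 0.39 and 0.41 without, also a difference of 1.12. For Eif3a the effects were 0.35, 0.31 and 0.69 with ActD and -0.44, -0.29 and -0.47 without, a difference of 0.85 (adjusted p 0.0239). Fam111a had the largest difference among the 27 probes that passed, 1.17 (adjusted p 0.034, limma).

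Synaptic genes also among the 27 were Snap25, a protein of the vesicle fusion complex, at 10.65, 11.78 and 11.25 in Activity and 11.07, 11.68 and 11.54 in Block without ActD, Gabrb1, a GABA-A receptor subunit, and Plcb1, a phospholipase downstream of metabotropic receptors. Snap25 was the exception that lay above Block at 30 min without ActD. Others act in the nucleus, namely Smc3, a cohesin subunit, Mphosph8, a chromatin silencer, Bclaf1, Luc7l3 and Hnrnpa3, which bind or splice RNA, Zfp148, a zinc finger factor, and Rarb, a retinoic acid receptor. Acsl4, which activates polyunsaturated fatty acids, Pcm1 of centriolar satellites, Pja2, a ubiquitin ligase, and Cfap97 completed the named genes. Differences from 0.59 to 1.17 were measured over the 27.

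**Figure D5:**
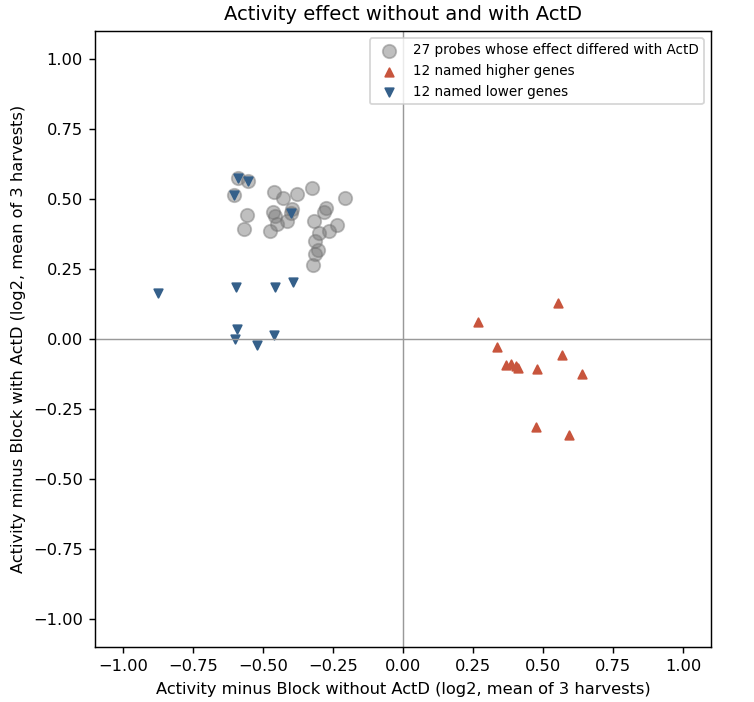
The horizontal axis gives the Activity minus Block difference without ActD and the vertical axis that with ActD, both log2 means of 3 harvests. The 27 probes whose effects differed (grey circles) were chosen by that difference, and all lay lower without and higher with ActD. On the vertical axis, 11 of the 12 lower named genes (down triangles) lay above 0, in a range of -0.02 to 0.58. Of the 12 higher named genes (up triangles) 10 lay below 0, in a range of -0.34 to 0.13.

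Of the early response genes, none was among the 27. Nr4a3 was higher by 0.42 at 5 min, lower by 0.28 at 30 min and higher by 0.04 at 60 min with ActD, without a common direction, and the difference of 0.53 between its effects had an adjusted p of 0.171 (limma). The early response median with ActD was 0.02, with 17 of 28 genes higher, against 0.11 and 23 of 28 without.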

How the data were processed

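The 12 arrays (Illumina RatRef-12, hippocampal culture RNA) were grouped by the deposited labels. The members and gene lists were chosen with earlier results of these data known. The authors pooled coverslips, scanned the arrays and summarised beads with BeadStudio. As deposited, the intensity of each of 22523 probes was the mean signal of its beads on a linear scale without background subtraction or scaling, and the deposited detection p-value compared each signal with negative controls. A second deposited intensity table was scaled by the authors to equal totals (factors 0.882 to 1.12) and served as an alternative. Symbols came from the platform annotation (13793 probes with 1 symbol, 0 with several, 8730 with none), and 13752 matched GRCr8.

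Intensities were corrected, quantile-normalised and log2-transformed with neqc, with an offset of 16, in limma 3.58.1 under R 4.3.3. The tested set, 11792 probes for 8169 genes, had to be detected (p under 0.01) on 2 or more of 12 arrays. In limma, lmFit and eBayes (trended variance) fitted 6 pairs of arrays (harvest by ActD) with 1 activity effect without and 1 with ActD, leaving 4 residual degrees of freedom, with Benjamini-Hochberg adjustment at 0.05 over all probes. The pairs with ActD lent only residual spread to the effect without ActD. Differences are log2, ± the SE of this 12-array fit. The number of arrays limits the precision.

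The z-fold was adapted from the methods (total scaling, detection p under 0.1 on the 6 arrays, threshold 1.4). Taking logs, a step the methods do not name, and scoring each array by itself were decided here. Named genes were the 12 higher and 12 lower of lowest p among symbols detected on all 3 arrays of the higher arm with 1 sign at all harvests, the 4 of lowest p in each list, the 6 largest differences each way per harvest, and Fos, Egr1, Junb, Arc, Nr4a1, Nr4a3, Npas4, Homer1 and Bdnf. A list gene with several probes (15 of 596 genes) was represented by the brightest. For genes not detected on 1 arm, a bound was computed against the lowest detected signal of each array. Scripts were tested on simulated data. Alternatives were scaling, background correction, offset, filters, blocks, robust variance and leaving out each pair.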

Additional observations from a re-analysis of the deposited data

Results flagged for a closer look

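The effect of activity differed with and without ActD, by the test of the difference itself (limma, adjusted p of 0.05), for 27 probes. Among the genes named above this held for Eif3a (0.85, log2, with minus without ActD), Fam111a (1.17), Scn2a (1.12) and Gria2 (1.12).

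For further genes every harvest moved one way without ActD and the other way with it, without passing that test. With minus without ActD, the effects differed by -0.94 for Trip10, -0.47 for Bax, -0.50 for Ifi27l2b, -0.79 for Mx2, 0.65 for Zbtb18 and 0.60 for Klf7. Their adjusted p in the limma fit were between 0.0617 and 0.157.

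For 4 lists the harvest medians lay on one side of 0 at all 3 harvests without ActD and on the other side at all 3 with it, and these differences were not tested. The medians of the 3-harvest means, with minus without ActD, differed by 0.0403 for GABA, glycine and monoamine receptors (where both of these medians lay below 0, at -0.01 with and -0.05 without), -0.12 for actin regulation and SRF-MRTF targets, -0.0773 for cytosolic ribosomal proteins and -0.16 for NF-kB and inflammatory genes.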

How the results depend on the processing

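Calls rest on few arrays. Arrays were paired by harvest in the main fit. No further paired analysis by replicate number was possible because all arrays carry number 3. The count of called probes without ActD was 0 under most alternatives, 180 with the 6 arrays alone and 229 without the 30 min pair with ActD (0 to 229 when 1 pair was left out).

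The count of probes whose effect differed with ActD was 2 under total intensity scaling and without background correction, 13 under median scaling, 55 with robust variance, 0 with a harvest factor shared with and without ActD, 0 without a harvest block, and 0 to 649 when 1 pair was left out. The cause was not tested.

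Total intensity scaling moved the median of all probes to -0.05, and 15.2% of probes at an unadjusted p under 0.05 were then higher, against 47.4% in the main setting and 55.4% under median scaling. Probes higher at all 3 harvests fell to 1292 and lower ones rose to 3710, and the counts without overlap became 171 above and 651 below (207 below among probes detected on all 6 arrays). Fos (-0.0363), Arc (-0.0222) and Nr4a1 (-0.0299) reversed under it, Nr4a1 also without the 5 min pair (-0.0533) and Arc without the 30 min pair (-0.00787, and 0.265 without the 5 min pair).

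Past 1.5-fold, total intensity scaling left 41 higher and 74 lower probes at 5 min, 3 and 202 at 30 min and 4 and 181 at 60 min. Without background correction there were 55 and 26, 9 and 140, and 9 and 108. Among probes detected on all 6 arrays there were 115 and 106 at 5 min, 40 higher at 30 min, and 72 and 199 at 60 min. Past 2-fold there were 13 and 4, 4 and 41, and 3 and 22. On unlogged intensities the z-fold counts were 262 and 179 at 5 min, 222 and 185 at 30 min and 284 and 257 at 60 min.

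List medians moved under total intensity scaling for early response genes (0.0219), effectors (-0.00918), synaptic vesicle (-0.13), GABA and monoamine receptors (-0.15), voltage-gated channels (-0.14), actin (-0.0055), NF-kB (0.0028), mRNA decay (-0.0781) and oligodendrocyte lineage (-0.029), and under median scaling for ribosomal (0.18), respiratory (0.19) and astrocyte genes (0.0769). The effector median was 0.0615 without background correction. With 1 pair left out, effectors ranged from 0.0615 to 0.10, synaptic vesicle genes from -0.16 to -0.0681, actin genes from 0.0255 to 0.10 and astrocyte markers from -0.0819 to -0.0126. The microglia list had no member among probes detected on all 6 arrays. Dim genes such as Nr4a1, Arc, Hoxb1 and Ppargc1a lay near background, where small differences cannot be seen.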
